A study of Mus musculus with 8 samples.

Results

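The 9 genes described here encode the opioid receptors (Oprk1, Oprm1 and Oprd1), the related nociceptin receptor (Oprl1) with the precursor of its ligand (Pnoc), the neurotensin precursor (Nts) with both of its G protein-coupled receptors (Ntsr1 and Ntsr2), and the orphan receptor Gpr149. They are the rows with these gene names among the 54532 genes of the deposited table, and all 9 passed the filter on low counts that left 17195 genes for testing. Nts, Oprk1 and Gpr149 among them had been chosen by their higher expression in the mice with the Adrb1 mutation, in the same libraries and the same comparison as used here. The differences between genotypes are therefore given for all 9 genes as a description, with standard errors and no test. RNA was taken from the dissected cortex of 8 C57BL/6 mice at 8 mo of age, with 1 bulk RNA-seq library per mouse. All of them carried the PS19 transgene, a human 1N4R tau with the P301S mutation under the mouse prion protein promoter. Of these, 4 (PS19: m677, m668, m665 and m659) had no other change, and 4 (Adrb1+/m;PS19: m671, m661, m660 and m658) also carried 1 copy of the knock-in mutation Adrb1-A187V of the β1-adrenergic receptor. The comparison asks which genes differ in the cortex when this mutation, found in people with familial natural short sleep, is present in the tauopathy model.

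Opioid and nociceptin receptors couple to inhibitory Gi/o proteins, lower cAMP, open inwardly rectifying potassium channels and reduce transmitter release. Their ligands are cut from larger precursors, enkephalins from Penk, dynorphins from Pdyn, β-endorphin from Pomc and nociceptin from Pnoc. Neurotensin acts through Ntsr1, which couples mainly to Gq/11 and in the mouse cortex marks corticothalamic neurons of layer 6, and through Ntsr2, which in the brain is found mainly in astrocytes. Gpr149 is a class A receptor without an established ligand.

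The Nts precursor of 169 residues holds neuromedin N and neurotensin side by side, and the Pnoc precursor holds nociceptin. The coding stretches of these 3 peptides are shown because they are the products whose supply the transcript levels of Nts and Pnoc bear on. Each was cut between consecutive Lys-Arg pairs of the GENCODE M21 coding sequence, on the minus strand of GRCm38, and each lies within 1 exon. Neuromedin N has 6 residues (chr10:102482400-102482417), neurotensin 13 (chr10:102482355-102482393) and nociceptin 17 (chr14:65404842-65404892).
Neuromedin N: aaaatcccttatattctg
Neurotensin: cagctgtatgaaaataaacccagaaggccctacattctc
Nociceptin: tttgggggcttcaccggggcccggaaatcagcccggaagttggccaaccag

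The stretch upstream of Nts is shown because Nts was the member that varied most between mice. RefSeq promoter windows on GRCm38.p6, from 250 bases before to 50 after a gene's start, were found for 6 of the 9 genes, in 10 windows, and not for Oprk1, Pnoc and Gpr149. The first sequence is the part of the Nts window that lies before the Ensembl gene interval (chr10:102490487-102490668, minus strand). The second, a window of 30 bases around the other match (chr10:102490467-102490496), reaches past the Ensembl start. Capitals mark matches to the AP-1 motif TGAGTCA and to TGACATCA, which differs by 1 base from the cAMP response element TGACGTCA.
Nts upstream: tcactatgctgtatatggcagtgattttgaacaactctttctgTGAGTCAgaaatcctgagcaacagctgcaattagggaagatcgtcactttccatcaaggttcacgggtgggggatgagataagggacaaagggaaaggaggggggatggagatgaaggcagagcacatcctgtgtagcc
Nts CRE-like window: ctgtgtagccaTGACATCAtcctcctgctc
Counting the RefSeq start base as 0, the AP-1 match began at -207 and the other match at -67. The letters were picked after the Nts window had been read, and both strands were searched. Among all 32851 windows of 300.0 bases, 5.2% held the AP-1 motif (TGAGTCA or TGACTCA), 3.62% held TGACATCA or TGATGTCA and 1.79% held TGACGTCA. None of the other 9 windows of these genes held any of the 3. A match is a run of letters and no measurement of binding.

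Total counts were between 14653222 and 21223754 per mouse, and the TMM factors lay between 0.990 and 1.01. Gene coordinates are those of the deposited table (GRCm38). Values below are CPM, counts relative to a library size scaled with these factors and set equal for all mice. Over all genes, 481 had an unadjusted p-value under 0.05 between the genotypes by edgeR's quasi-likelihood test, and 0 had one after adjustment. A gene is termed called below when its unadjusted p-value was under 0.05, which held with higher levels in Adrb1+/m;PS19 mice for 1.42% and with lower levels for 1.37% of the genes tested. Together these shares lie below the 5.05% of unchanged genes that the same edgeR test called in simulated counts. DESeq2 gave 555 and 0, and limma-voom 492 and 0. The libraries held the cortical excitatory neuron markers that were looked up, all 8 of 8 (summed level, 1365 to 1727 CPM), and none of them was at 0. Markers of striatal projection neurons were also present (10 of 10, 814.8 to 1838 CPM). The point mutation itself cannot be read from counts per gene.

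Per kilobase of gene length, the scale on which levels of different genes can be compared, Ntsr2 was the most abundant member, with 36.4 ± 2.61 CPM per kb (SD, n = 8 mice). Oprl1 followed with 9.93 ± 0.955 and Oprd1 with 7.45 ± 1.26. The ranges of these 2 overlapped, although Oprl1 was above Oprd1 in 7 of 8 mice. Both peptide precursors came next, Nts with 4.53 ± 1.77 and Pnoc with 3.68 ± 0.592 CPM per kb, and their order held in only 5 of 8 mice. Ntsr1 had 1.93 ± 0.330 and Oprk1 1.604 ± 0.310, with overlapping ranges and Ntsr1 higher in 7 of 8 mice. Gpr149 with 0.799 ± 0.343 and Oprm1 with 0.460 ± 0.0879 CPM per kb were the lowest, and their ranges overlapped too. Only the steps from Ntsr2 to Oprl1, of 3.67-fold, and from Pnoc to Ntsr1, of 1.91-fold, separated neighbours without overlap among the 8 mice. From Ntsr2 to Oprm1 the mean level per length fell 79.1-fold. The μ-opioid receptor gene Oprm1 was thus the scarcest of the opioid receptor genes in these cortex samples, below Oprk1 in 8 of 8 mice.

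**Figure D1:**
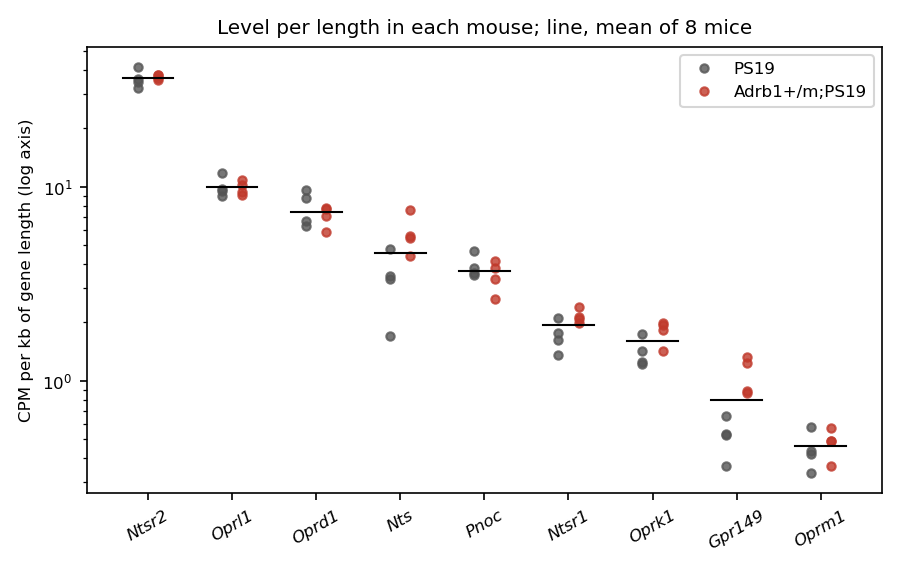
Level of each gene in CPM per kb of gene length (log axis) in the 4 PS19 (grey) and 4 Adrb1+/m;PS19 (red) mice, with the mean of 8 mice as a line. Ntsr2, at 32.3 to 41.3, lies above every value of the other genes, and Oprm1, at 0.335 to 0.577, is lowest by mean.

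Nts (ENSMUSG00000019890, chr10:102481756-102490486, minus strand), which encodes the ligand, had 5.94, 4.35, 2.12 and 4.16 CPM in the PS19 mice m677, m668, m665 and m659. In the Adrb1+/m;PS19 mice m671, m661, m660 and m658 it had 5.46, 6.94, 6.83 and 9.45 CPM. The genotypes overlapped through the highest PS19 mouse, m677, and the lowest Adrb1+/m;PS19 mouse, m671, while m665 was lowest of all and m658 highest. The means were 4.14 ± 1.57 and 7.17 ± 1.66 CPM (SD, n = 4 each), a log2 fold change of 0.81 ± 0.26 (SE). These values rest on 45 to 167 counts per mouse. With each mouse left out in turn, the log2 fold change lay between 0.57 and 1.04.

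Ntsr1 (ENSMUSG00000027568, chr2:180499976-180544980, plus strand), the high-affinity neurotensin receptor, had 8.21, 5.32, 6.33 and 6.93 CPM in PS19 mice m677, m668, m665 and m659 and 8.40, 7.76, 9.35 and 8.15 CPM in Adrb1+/m;PS19 mice m671, m661, m660 and m658. The PS19 mice m668, m665 and m659 lay below every Adrb1+/m;PS19 mouse, and m677 lay among the latter. The log2 fold change was 0.33 ± 0.14 (SE). Beside it, the layer 6 corticothalamic markers, a list of 6 without Ntsr1, summed to 284.3 to 333.3 CPM in PS19 and 299.6 to 348.2 in Adrb1+/m;PS19 mice. Of the 6, 4 were higher and 2 lower, only Foxp2 among them had an unadjusted p-value under 0.05 (log2 fold change 0.30, SE 0.11, edgeR unadjusted p = 0.0144, adjusted p = 0.9996), and none was at 0. Their part in the Ntsr1 values was not tested.

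Ntsr2 (ENSMUSG00000020591, chr12:16653382-16660227, plus strand) had 128.7, 100.6, 107.8 and 112.6 CPM in the PS19 mice and 113.9, 117.3, 116.8 and 110.8 CPM in the Adrb1+/m;PS19 mice, in the same order of mice. The Adrb1+/m;PS19 mice lay inside the range of the PS19 mice, and the log2 fold change was 0.03 ± 0.07 (SE). Ntsr2 varied less between mice than most genes, with 33.3% of the genes tested having a smaller spread within genotype. The highest and lowest mouse differed 1.28-fold in Ntsr2. The summed astrocyte markers (7 of 7 present) differed 1.76-fold, from 1101 to 1919 CPM in PS19 and from 1147 to 1942 in Adrb1+/m;PS19 mice. Gfap, which rises in reactive astrocytes, spanned 181.7 to 837.9 CPM among the same 8 mice, and without it the other 6 markers, a sum taken after the values had been seen, differed 1.25-fold.

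Pnoc (ENSMUSG00000045731, chr14:65400673-65425472, minus strand), the nociceptin precursor, had 10.04, 8.21, 7.55 and 7.71 CPM in the PS19 mice m677, m668, m665 and m659. It had 5.70, 7.18, 8.96 and 8.21 CPM in the Adrb1+/m;PS19 mice m671, m661, m660 and m658. The genotypes overlapped, with the highest value in m677 and the lowest in m671, and the log2 fold change was -0.15 ± 0.16 (SE). Its receptor gene Oprl1 (ENSMUSG00000027584, chr2:181715016-181720985, plus strand) was near level, with 44.2, 33.8, 35.7 and 36.4 CPM in PS19 and 35.3, 40.7, 34.0 and 38.2 in Adrb1+/m;PS19 mice. The log2 fold change of Oprl1 was -0.02 ± 0.09 (SE), and leaving out 1 mouse moved it between -0.07 and 0.07. The ligand and the receptor of this system thus had no difference in the mean beyond 1 standard error.

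Oprk1 (ENSMUSG00000025905, chr1:5588466-5606131, plus strand), the κ-opioid receptor for dynorphins, had 11.2, 16.0, 11.4 and 13.0 CPM in the PS19 mice m677, m668, m665 and m659. In the Adrb1+/m;PS19 mice m671, m661, m660 and m658 it had 17.8, 13.0, 16.8 and 18.2 CPM. The Adrb1+/m;PS19 mice m671, m660 and m658 lay above every PS19 mouse, and m661 lay among the PS19 mice, below m668. The means were 12.9 ± 2.22 and 16.5 ± 2.36 CPM (SD, n = 4 each), a log2 fold change of 0.35 ± 0.13 (SE). With each mouse left out it lay between 0.29 and 0.47. The markers of claustrum and endopiriform nucleus, regions at the cortical border where Oprk1 is known to be expressed, summed to 240.3 to 335.3 CPM in PS19 and 269.0 to 348.7 in Adrb1+/m;PS19 mice, with 5 of 6 higher, none called and none at 0. The markers of striatal projection neurons summed to 814.8, 1659, 1189 and 874.4 CPM in PS19 mice m677, m668, m665 and m659. They summed to 1838, 859.9, 1266 and 1531 CPM in Adrb1+/m;PS19 mice m671, m661, m660 and m658. The part of either group of cells in the Oprk1 values was not tested.

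The other opioid receptor genes differed less. Oprd1 (ENSMUSG00000050511, chr4:132110726-132144486, minus strand), the δ-opioid receptor, had 25.1, 38.7, 35.0 and 26.8 CPM in PS19 and 28.3, 30.9, 23.6 and 31.2 in Adrb1+/m;PS19 mice. The genotypes overlapped, the lowest value being in m660 and the highest in m668, and the log2 fold change was -0.14 ± 0.13 (SE). Oprm1 (ENSMUSG00000000766, chr10:6758506-7038198, plus strand) had 2.70, 3.38, 3.49 and 4.64 CPM in PS19 and 2.94, 3.93, 3.92 and 4.58 in Adrb1+/m;PS19 mice, on 44 to 82 counts per mouse. Its genotypes overlapped almost entirely, with a log2 fold change of 0.11 and a standard error of 0.21. Within the receptor family the log2 fold changes thus ran from -0.14 for Oprd1 to 0.35 for Oprk1. Oprm1 was the only member whose interval overlapped other genes, Ipcef1 and Gm10945 on the opposite strand. Ipcef1 had 1936 to 3007 counts per mouse and shares 96 exonic bases with Oprm1, and Gm10945 had 0 counts. The strand setting of the counting is not stated in the sources used here, so the few counts of Oprm1 are uncertain to that extent.

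Gpr149 (ENSMUSG00000043441, chr3:62529077-62605140, minus strand) had 2.27, 2.83, 1.56 and 2.29 CPM in the PS19 mice m677, m668, m665 and m659 and 3.72, 5.27, 3.81 and 5.66 CPM in the Adrb1+/m;PS19 mice m671, m661, m660 and m658. Every Adrb1+/m;PS19 mouse lay above every PS19 mouse. The means were 2.24 ± 0.522 and 4.61 ± 0.996 CPM (SD, n = 4 each), a fold of 2.09 and a log2 fold change of 1.06 ± 0.23 (SE). It was a low gene, with 33 to 110 counts per mouse. With each mouse left out the log2 fold change lay between 0.91 and 1.19.

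**Figure D2:**
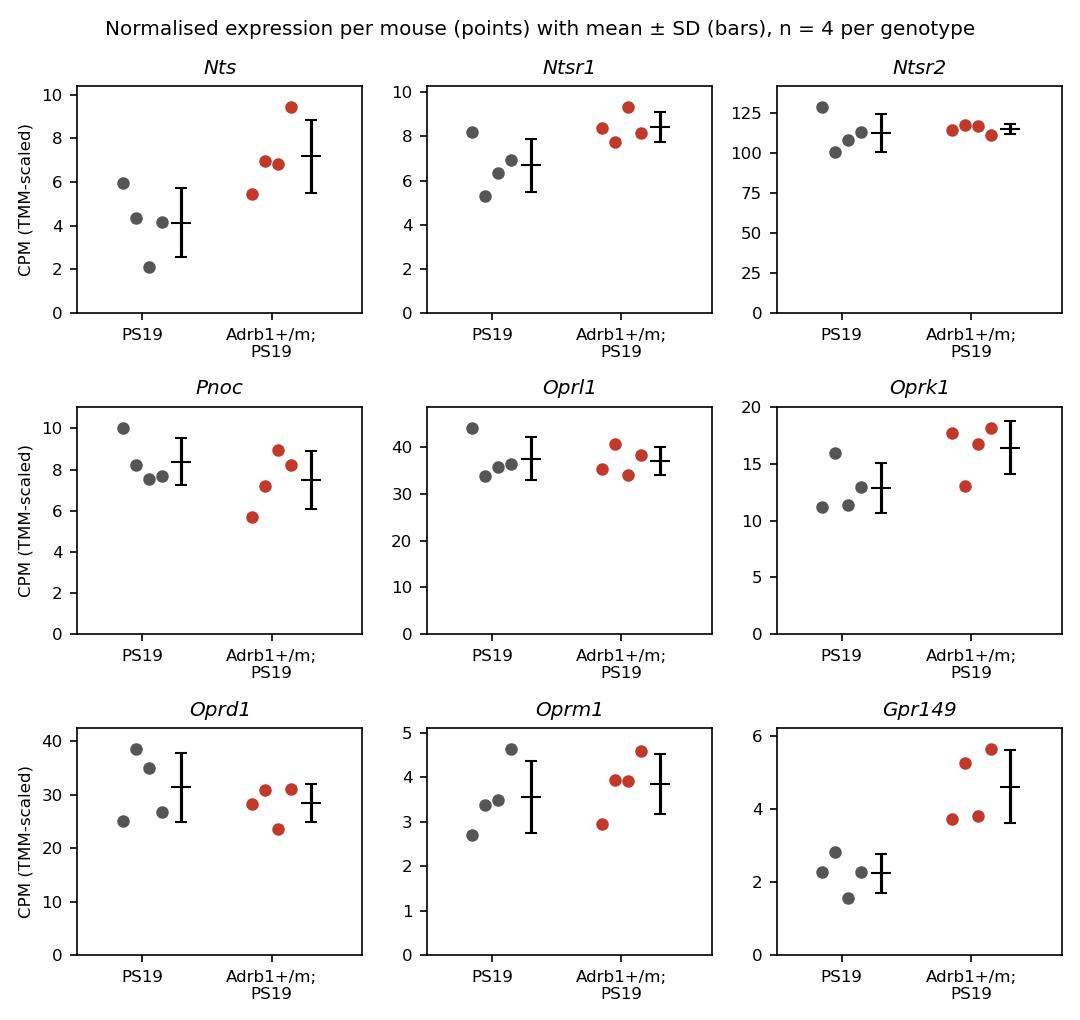
Normalised expression in CPM (each panel from 0) of the 9 genes in single mice, 4 PS19 (grey) and 4 Adrb1+/m;PS19 (red), with mean ± SD. Only the Gpr149 values, 1.56 to 2.83 against 3.72 to 5.66, do not overlap between the genotypes.

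Of the 9 genes, 6 had a log2 fold change above 0 and 3 below, with a median of 0.11, against 50.2% above 0 and a median of 0.00046 over all genes tested. Nothing is read from these counts, because the choice of the genes used this comparison. Gpr149 was the only member whose genotypes did not overlap, which held for 2.02% of the genes tested, counting both directions.

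**Figure D3:**
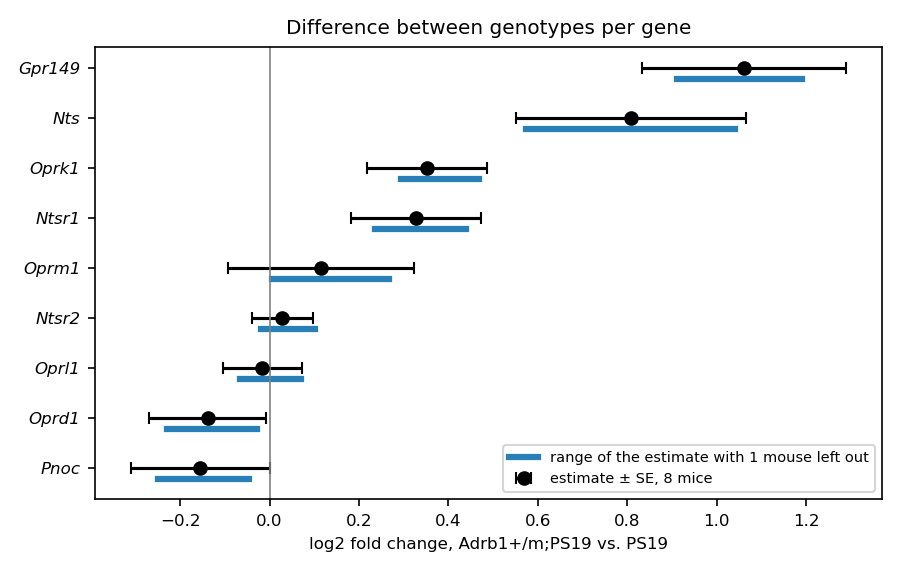
Log2 fold change of each gene, Adrb1+/m;PS19 vs. PS19 mice, with its standard error (black) and the range of the estimate when 1 of the 8 mice is left out (blue). Gpr149 (1.06) and Nts (0.81) stand highest, and the range of Oprl1 and Ntsr2 includes 0.

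Marker genes of other cell types were read in the same libraries, from lists chosen with earlier results of these data known. The shares called are therefore a description and no independent result. Markers of the same cell type also share their libraries and can vary together. All 9 markers of basal forebrain cholinergic neurons were higher in Adrb1+/m;PS19 mice, 7 of them called by edgeR (against 1.42% of all genes tested), and the median of their log2 fold changes was 0.65. Their summed level was 37.9 to 58.1 CPM in PS19 and 59.8 to 87.2 in Adrb1+/m;PS19 mice, without overlap. The lowest sum was in m665 and the highest in m658, the mice that also had the lowest and the highest Nts and Gpr149. Other mice did not follow this order. Among the Adrb1+/m;PS19 mice, m661 had the lowest sum (59.8 CPM) but more Nts (6.94) and Gpr149 (5.27) than m671 and m660. Among the PS19 mice, m659 had the highest sum (58.1) but less Nts (4.16) than m677 (5.94), whose sum was 44.6. All 10 striatal markers were higher as well, 2 of them called, with summed levels of 814.8 to 1659 and 859.9 to 1838 CPM that overlapped. Of 6 markers of the central amygdala 3 were higher and 1 was called (76.9 to 108.2 CPM in PS19, 91.6 to 120.9 in Adrb1+/m;PS19 mice). Of 8 cortical excitatory markers 7 were lower and 3 were called lower, against 1.37% of all genes tested (1502 to 1727 CPM in PS19, 1365 to 1557 in Adrb1+/m;PS19 mice). Interneuron markers (6 of 8 higher, 2 called higher and 1 lower) had sums that overlapped between the genotypes (1076 to 1132 against 1086 to 1211 CPM). Called were Gad2 and Slc32a1, both higher, and Vip, lower. Gad2 alone of the interneuron list did not overlap (238.5 to 263.5 against 270.3 to 337.1 CPM), as held for 2.02% of the genes tested. Lhx8 of the basal forebrain list did not overlap either (0.944 to 1.93 against 2.80 to 4.41 CPM). Nor did Dlk1 of the central amygdala list (3.40 to 9.88 against 10.3 to 14.5 CPM). The sums of thalamic markers (5 of 6 higher, none called, 74.8 to 79.5 against 73.0 to 89.3) and microglial markers (4 of 6 higher, none called, 321.2 to 535.1 against 312.9 to 509.0) overlapped too. So did those of layer 6b and subplate (2 of 5 higher, none called, 58.5 to 73.8 against 60.9 to 70.5) and of the hypothalamus, of which 3 of 8 were tested, 2 of them higher and none called (4.11 to 19.2 against 2.54 to 25.5). No marker of any of these lists passed after adjustment over all genes, and none was at 0 in all mice. The part of these cells in the values of Nts, Oprk1 and Gpr149 was not tested, and in bulk tissue more cells of a type cannot be told apart from more RNA per cell.

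Spread between mice of the same genotype differed among the members. Nts had the largest, an SD of 0.48 on the log2 scale that exceeded that of 90.5% of the genes tested. Its coefficient of variation was 37.8% in PS19 and 23.2% in Adrb1+/m;PS19 mice, where counting error alone gives 10.01% at its mean of 99.9 counts. Gpr149 followed with an SD of 0.32 and Oprm1 with 0.29. Ntsr2, with 2013 counts on average, had the smallest, 0.11.

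Deviations from the genotype mean, which do not contain the difference between genotypes, were compared for all 36 pairs of the 9 genes over the 8 mice. The δ-opioid receptor gene and the neurotensin receptor gene Ntsr1 deviated in opposite directions. For Oprd1 and Ntsr1, Pearson's r was -0.93 (exact permutation test within genotype, 2-sided, p = 0.00347, adjusted p = 0.125 over 36 pairs) and Spearman's rho -0.93 (exact p = 0.0139, adjusted p = 0.50). Without the 2 mice farthest from the median in Oprd1, r was -0.88. Oprd1 and Ntsr2 also went in opposite directions, with r = -0.80 (exact p = 0.0295, adjusted p = 0.448) and rho = -0.86 (exact p = 0.033, adjusted p = 0.594), and r = -0.72 without the 2 farthest mice. Both neurotensin receptor genes had r = 0.89 (exact p = 0.0469, adjusted p = 0.448) and rho = 0.64 (exact p = 0.156, adjusted p = 0.703), but r = 0.36 without the 2 farthest mice, so that relation rests on them. Nts and Gpr149 had r = 0.76 (exact p = 0.059, adjusted p = 0.448) and rho = 0.71 (exact p = 0.0833, adjusted p = 0.703), and r = 0.79 without the 2 farthest mice. Of the 36 pairs 3 had an exact p-value under 0.05 and none passed after adjustment. The test has 576 arrangements and a smallest p of 0.00174. Over 36 pairs, a pair alone at that p would not reach an adjusted p under 0.05. The adjusted values therefore cannot show that a pair does not vary together. The genes of a pair share their libraries and depth.

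**Figure D4:**
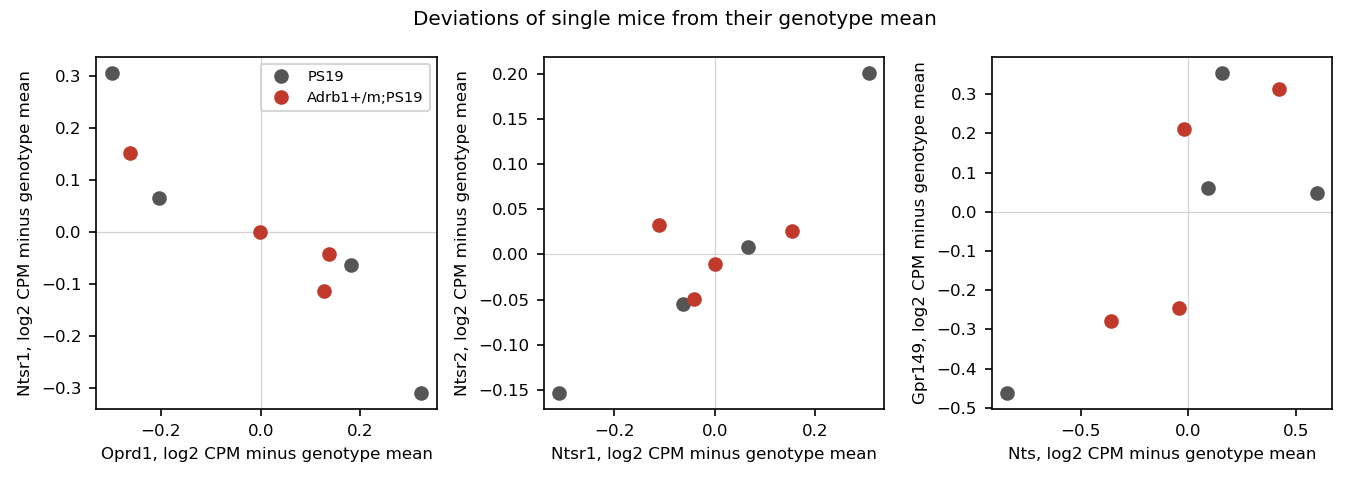
Log2 CPM minus the genotype mean in each of 8 mice (grey PS19, red Adrb1+/m;PS19) for Oprd1 and Ntsr1, Ntsr1 and Ntsr2, and Nts and Gpr149. The points fall along a descending line in the first panel (r = -0.93), while in the second a mouse at each end sets the slope (r = 0.89, and 0.36 without them).

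The genes with the most similar pattern were looked up among 13882 other protein-coding genes with a mean of at least 1 CPM, by Pearson's r of the same deviations over 8 mice. For Gpr149 they were Oxtr, the oxytocin receptor (r = 0.98, rho = 0.95), Lipe (r = 0.98) and Nutf2 (r = 0.95). For Nts they were Crim1 (r = 0.97), Tiam1 (r = 0.96) and Dgkk (r = 0.96), and for Oprk1 they included Abcd3 (r = 0.99) and Abat (r = 0.98), the GABA transaminase. The closest genes to the other receptors were Ak7 for Ntsr1 (r = 0.997), Saxo2 for Ntsr2 (r = 0.99), Greb1l for Oprd1 (r = 0.99), Atxn3 for Oprm1 (r = 0.98) and Psmd10 for Oprl1 (r = 0.98), and Tmem243 was closest to Pnoc (r = 0.99). With so many genes and 8 mice, every member had a gene with r of at least 0.97.

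The other genes of these pathways were read from 6 lists, of which 124 genes are in the table and 115 were tested, the 9 members not included. Among these, 3 were called higher in Adrb1+/m;PS19 mice at an unadjusted p-value under 0.05 (2.61%, against 1.42% of all genes tested) and 1 was called lower (0.870%, against 1.37%). None passed edgeR's test after adjustment over all genes. The median log2 fold change over the 115 genes was 0.00034. Without PS19 mouse m668 the number called higher was 11, without Adrb1+/m;PS19 mouse m661 it was 10, without m660 it was 5 and without m658 it was 1, and the number called lower was 6 without PS19 mouse m665, so these counts depend on single mice.

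Among the opioid peptide precursors, Pdyn, the source of the dynorphins that act on Oprk1, rose from 35.2 ± 4.73 to 43.4 ± 6.56 CPM (SD, n = 4 each), a log2 fold change of 0.31 ± 0.11 (SE) (edgeR, unadjusted p = 0.0174, adjusted p = 0.9996). It had 33.6, 41.7, 34.9 and 30.5 CPM in PS19 and 45.9, 44.0, 34.2 and 49.6 in Adrb1+/m;PS19 mice, and m660 lay among the PS19 mice. The call was lost without PS19 mouse m659 (0.24) or Adrb1+/m;PS19 mouse m658 (0.24). Penk, the enkephalin precursor and a marker of striatal neurons, was far more variable, with 174.2, 317.9, 209.5 and 187.7 CPM in PS19 and 378.1, 175.7, 241.9 and 331.6 in Adrb1+/m;PS19 mice. The lowest mice of both genotypes, m677 and m661, were nearly equal, and each genotype held a mouse far above them. The log2 fold change was 0.34 ± 0.21 (SE) (edgeR, unadjusted p = 0.132, adjusted p = 0.9996). It was 0.17 without Adrb1+/m;PS19 mouse m671 and 0.56 without PS19 mouse m668, and Penk was called without m668, without Adrb1+/m;PS19 mouse m661 (0.51) and with no filter beyond 1 count (0.35). The part of striatal cells, whose markers also varied between mice, in the Pdyn and Penk values was not tested. Pomc was near the limit of detection, with 1.23 ± 0.207 and 0.956 ± 0.167 CPM (SD, n = 4 each) and a log2 fold change of -0.36 ± 0.28 (SE).

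Of the 9 neuropeptide processing enzymes tested, 4 were higher and 5 lower in Adrb1+/m;PS19 mice. Among them 1 was called, with a lower level, against 1.37% of all genes tested. Pcsk1, a prohormone convertase that cuts peptide precursors at paired basic residues, fell from 67.9 ± 5.64 to 56.7 ± 4.33 CPM (SD, n = 4 each), a log2 fold change of -0.26 ± 0.07 (SE) (edgeR, unadjusted p = 0.00317, adjusted p = 0.9996). It had 67.9, 60.0, 71.7 and 72.2 CPM in PS19 and 50.8, 56.4, 59.3 and 60.4 in Adrb1+/m;PS19 mice, which overlapped only through m668 and m658. The log2 fold change stayed between -0.32 and -0.21 in all 14 alternatives. The other 8 were not called. None of the 12 peptidases that cut opioid peptides or neurotensin was called, and their log2 fold changes ran from -0.38 to 0.27 around a median of -0.02.

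Among 35 genes of Gi/o signalling and desensitization 0 were called, and the median log2 fold change was -0.02. Rgs19, which speeds the inactivation of Gi/o proteins, had 16.4 ± 2.21 and 15.2 ± 1.69 CPM (SD, n = 4 each) and a log2 fold change of -0.11 ± 0.11 (SE). None of the 21 genes of Gq/11 signalling and sortilins was called, with a median of -0.0019. Sort1, a sorting receptor that also binds neurotensin, had 618.3 ± 28.3 and 590.7 ± 16.6 CPM (SD, n = 4 each) and a log2 fold change of -0.07 ± 0.05 (SE). The lists downstream of the receptors thus held no called gene in the main comparison with all 8 mice. Over all genes tested, 1.42% were called higher and 1.37% lower. At these shares few calls would be expected in lists of 35 and 21 genes, so nothing is read from their absence.

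Of the 35 other class A orphan receptors tested, 2 were called, both higher in Adrb1+/m;PS19 mice, against 1.42% of all genes tested. The list's median log2 fold change was 0.07. Gpr139, expressed in the habenula and striatum, had 2.39, 4.14, 2.22 and 1.81 CPM in PS19 and 4.56, 2.01, 5.88 and 6.40 in Adrb1+/m;PS19 mice. Its log2 fold change was 0.84 ± 0.34 (SE) (edgeR, unadjusted p = 0.0256, adjusted p = 0.9996), with m661 among the PS19 mice. Gpr12 had 17.8 ± 1.72 and 20.4 ± 1.31 CPM (SD, n = 4 each), a log2 fold change of 0.20 ± 0.09 (SE) (edgeR, unadjusted p = 0.0453, adjusted p = 0.9996). The call of Gpr12 was lost in 8 and that of Gpr139 in 6 of 14 alternatives.

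**Figure D5:**
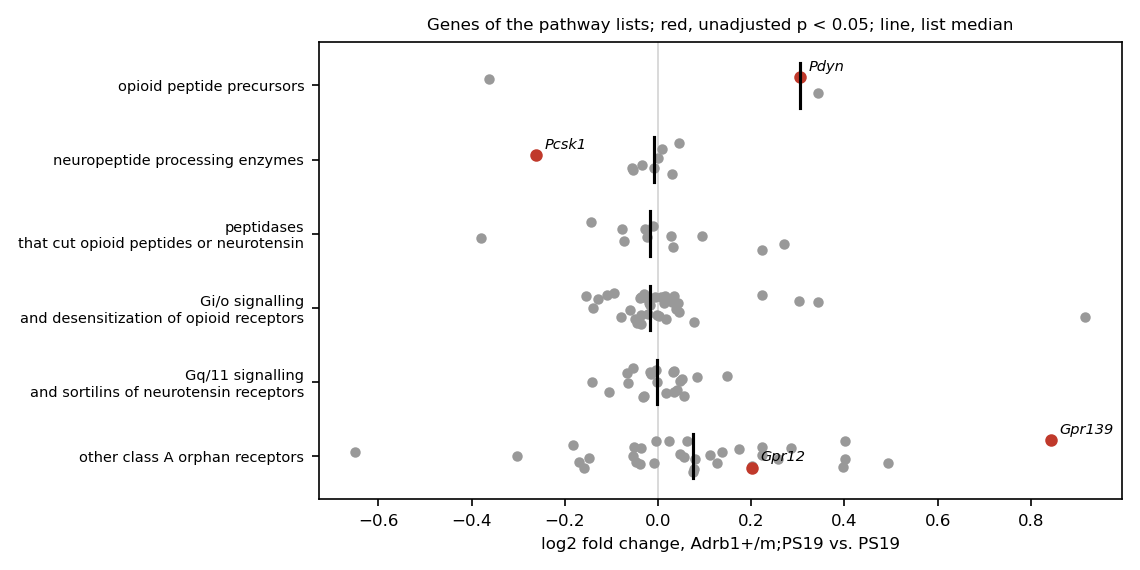
Log2 fold changes, Adrb1+/m;PS19 vs. PS19 mice, of the 115 tested genes of 6 pathway lists (points), with the list medians as lines and those called at an unadjusted p of 0.05 named in red. Pdyn, Gpr12 and Gpr139 lie above 0 and Pcsk1 (-0.26) below, and the medians lie between -0.02 and 0.07 except that of the opioid precursors (0.31).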

How the data were processed

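The deposited values are raw counts per Ensembl gene. Per the labels and the paper's methods, the authors aligned clean paired-end reads to GRCm38/mm10 with HISAT2 2.0.5, counted them with featureCounts 1.5.0-p3 and compared genotypes with DESeq2 1.20.0. Whether strand was used and how multiply mapped reads were handled is not given in the sources used here. The gene length column was used for levels per kilobase alone.

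From these counts, genes were kept with filterByExpr (17195 of 54532), scaled with TMM factors and compared by genotype alone with the 2-sided quasi-likelihood test of edgeR 4.0.16 (glmQLFit, then glmQLFTest; R 4.3.3). P-values were adjusted after Benjamini and Hochberg across every gene tested. A called gene had an unadjusted p-value under 0.05. The standard error is the log2 fold change divided by the square root of F. Log2 CPM used a prior count of 2. Alternatives were DESeq2 1.42.0, limma-voom 3.58.1, other scalings and filters, and each mouse left out. On simulated counts of 17003 genes, 195 of them changed by a fold of 2, the edgeR step gave 94.9% of the changed genes an adjusted p-value under 0.05. The simulation gave all genes the same small dispersion. Nts and Gpr149 varied more between mice of a genotype (SD of 0.48 and 0.32 on the log2 scale). The share found is therefore no estimate of how often such genes would pass here.

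The members, the pathway and marker lists and the tests were chosen with earlier results of these data known. The named genes were the members, Penk, Pdyn, Pomc, Sort1 and Rgs19, in each pathway list up to 3 called genes per direction with the smallest p, the 3 genes closest in pattern to each member (those closest to 6 members are given by the first alone, and 1 item is not reported here), and genes overlapping a member. Other genes are named beside a result they touch. Promoter windows are from RefSeq. Controls were littermates per the paper, but the labels give no litter.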

Additional observations from a re-analysis of the deposited data

Results flagged for a closer look

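In 72 groups of 4 mice (members, list sums, named pathway genes and total counts), Dixon's test set 2 values apart, where chance gives about 3.6. The summed layer 6 corticothalamic markers were 348.2 CPM in Adrb1+/m;PS19 mouse m671 against 299.6 to 306.9 in the other 3, and the summed layer 6b and subplate markers were 58.5 CPM in PS19 mouse m665 against 71.7 to 73.8. None of the 9 genes had such a value in either genotype.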

How the results depend on the processing

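The log2 fold changes of all members except Oprl1 and Ntsr2 kept their sign in all 14 alternatives, and 5 to 7 of the 9 genes were above 0. Those that kept their sign include Oprd1 and Pnoc, which stayed below 0, and Oprm1, which came close to 0 (0.0051). Oprl1 and Ntsr2 changed sign when single mice were left out. With no filter beyond 1 count, 1366 genes were called and 66 passed after adjustment, and 13 pathway genes were called higher and 5 lower. Limma-voom and a minimum of 10 counts in every mouse each called 2 pathway genes lower. With 1 mouse left out, 431 to 674 genes were called and 0 to 2 passed after adjustment (1 without m661, 2 without m658), and 1 to 11 pathway genes were called higher and 1 to 6 lower. The cause was not tested. The order of the mean levels per length held without TMM and with each mouse left out, the only alternatives run for it. Leaving out TMM scales all genes of a mouse alike and cannot reorder them within that mouse. In single mice the order did not always hold, with Nts above Pnoc in 5 of 8. No pair of genes passed the test of covariation after adjustment under either alternative, which a pair alone could not have done at the smallest p of that test. Without 1 mouse, its genotype has 3. No paired analysis was possible because each mouse is labelled with a number of its own, and neither a replicate number nor a litter ties mice of both genotypes. At 33 to 167 counts per mouse, Nts, Gpr149 and Oprm1 have wide errors.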
